A study of Mus musculus with 6 samples.

Results

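S100 proteins and annexins are the members described here: the protein-coding genes whose symbol begins with S100 followed by a, b, g, p or z, or with Anxa followed by a digit. The rule found 27 of 28262 listed genes, made up of 14 S100 genes, 12 annexins and S100pbp, which matches by its letters but encodes a protein that binds S100P and has no S100 domain. By the Pfam domains in the deposited annotation, 12 of the 14 S100 genes carry the S_100 domain, S100a7a is listed with EF-hand_1 and S100a16 with EF-hand_7, and all 12 annexins carry the Annexin domain. RNA was sequenced from Sertoli cells purified from testes of 20-day-old C57BL/6 mice, 3 libraries from Pa1F/F (PA1flox/flox) animals, the control, and 3 from Amh-pa1-/- animals. Both groups carry the floxed Pa1 alleles. The Amh-pa1-/- mice also carry Amh-cre, which expresses Cre recombinase in Sertoli cells, and no Cre-only group was compared here. The cells were untreated and kept at 34 °C. How many mice went into a library was not given in the sources used here, so p-values measure the spread between these libraries, which may be technical. The deletion of Pa1, a transcriptional co-regulator linked to the MLL3/4 methyltransferase complex, was not examined, as the counts of Pa1 itself were not used here.

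S100 proteins are small calcium sensors built around a pair of EF-hand loops. They work mostly as dimers that bind other proteins once calcium is bound. Annexins bind acidic phospholipids, above all phosphatidylserine, when calcium rises, and they link membranes to each other and to actin in endocytosis, exocytosis and the sealing of membrane tears. The families meet in fixed pairs: S100A10 with annexin A2, S100A11 with annexin A1 and S100A6 with annexin A11. Sertoli cells engulf apoptotic germ cells and residual bodies that expose phosphatidylserine, the lipid that annexin A5 binds.

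Gene ontology terms in the deposited annotation put calcium ion binding on 26 of the 27 members, all but S100pbp. Calcium-dependent phospholipid binding was attached to all 12 annexins and to no S100 gene, while zinc ion binding was attached to 6 S100 genes. Extracellular exosome was a shared location term of 17 members, 7 S100 genes and 10 annexins.

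Libraries held between 13203757 and 16231443 counts on genes, and a floor of 3 counts stood at 0.185 to 0.227 CPM, which are counts scaled to library size. Amh-pa1-/- replicate 3 stood apart from the other Amh-pa1-/- libraries, with a median absolute log2 difference of 0.230 from replicate 1 and 0.229 from replicate 2, against 0.0925 between replicates 1 and 2. Pa1F/F replicates 1 and 3 were likewise closer to each other (0.0973) than either was to replicate 2 (0.148 and 0.156). Divided by its degrees of freedom, chi-square came to 2.24 and 1.68 in the close pairs and to between 18.7 and 30.9 in the other 4 pairs. The close pairs thus exceeded counting noise, but whether their cells came from separate animals or cultures was not given in the sources used here. They were counted as separate libraries, and members that no longer passed with each close pair summed to 1 library are named as such. Sox9, a transcription factor that fixes Sertoli identity, had 3172 to 4983 normalized counts over the libraries. Of 15 listed Sertoli markers 13 were tested, and 3 were higher and 4 lower at an adjusted p under 0.05. Their summed level was 16946 to 17182 CPM in Pa1F/F and 10581 to 13461 in Amh-pa1-/- cells, mostly Clu, without which it was 3785 to 3981 and 3376 to 3508 CPM. Among them Gata4 (log2 fold change -0.88), Clu (-0.69), Inhbb and Aard fell, Cst9 (2.85), Dmrt1 (0.64) and Cst12 rose, and Wt1, Sox9 and Fshr did not pass (0.13, -0.12 and 0.07). In bulk RNA, fewer cells of a type and less RNA per cell cannot be told apart.

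In Amh-pa1-/- Sertoli cells the S100 and annexin genes did not move as a block. S100a10, S100a11, Anxa2, Anxa1 and Anxa4 rose, while S100b, S100a16 and Anxa7 fell. Of the 27 members, 18 passed the filter on low counts, namely 7 S100 genes, 10 annexins and S100pbp. At an adjusted p under 0.05 (edgeR's quasi-likelihood test, Benjamini-Hochberg over 14919 genes) 5 of the 18 were higher, 27.8%, against 18.2% of all tested genes, and 3 were lower, 16.7%, against 17.1%. With a log2 fold change of at least 1 as a further condition, 1 member was higher (S100a10) and 1 lower (S100b), 5.56% each, against 5.44% and 6.56% of all tested genes. Log2 fold changes of the 18 had a median of -0.01, beside 0.00 for all tested genes. Normalized counts of the groups did not overlap for 10 of the 18 members, 55.6%, against 52.4% of all tested genes.

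**Figure D1:**
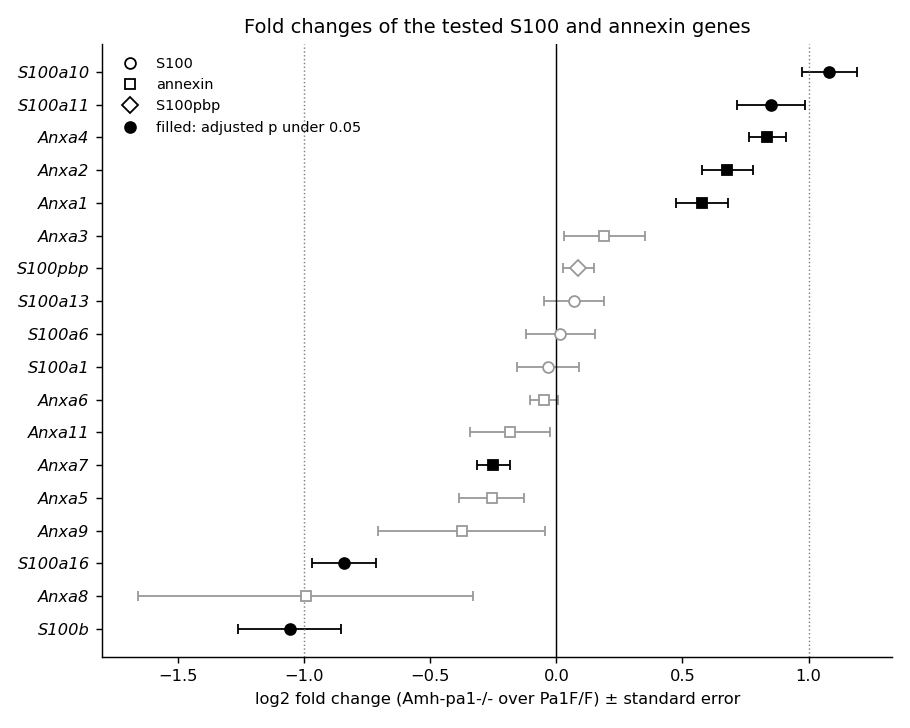
Log2 fold change of Amh-pa1-/- over Pa1F/F Sertoli cells for the 18 tested members (horizontal axis, with the standard error as bars), circles for S100 genes, squares for annexins and a diamond for S100pbp. Filled points passed an adjusted p of 0.05: 5 lie to the right of 0, from Anxa1 at 0.58 to S100a10 at 1.08, and 3 to the left, from Anxa7 at -0.25 to S100b at -1.06; dotted lines mark -1 and 1.

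To compare levels between genes, counts were divided by the length of each gene's canonical transcript and given as RPKM, which corrects for both transcript length and library size. On this scale Anxa2 was the most abundant member in Pa1F/F cells at 508 ± 22.4 RPKM (SD, n = 3), followed by Anxa5 at 374 ± 16.8, Anxa1 at 154 ± 13.8 and S100a11 at 154 ± 2.47. The levels of Anxa1 and S100a11 differed by less than their spread. S100a6 stood at 136 ± 15.1, Anxa3 at 120 ± 2.72, Anxa7 at 81.0 ± 2.97, S100a10 at 63.5 ± 2.17 and Anxa6 at 50.4 ± 1.61 RPKM. S100a16 at 33.9 ± 3.67, Anxa4 at 24.3 ± 1.33, S100pbp at 21.0 ± 1.39, Anxa8 at 19.9 ± 1.31 and S100a1 at 18.8 ± 1.90 RPKM followed, and of the last 3 each differed from its neighbour in this order by less than their spread. Anxa11, S100b, S100a13 and Anxa9 were lowest among the tested members, at 4.88, 2.68, 2.21 and 0.857 RPKM. The order depends on the length used: over the summed exons of each gene, Anxa2 (146 RPKM) and S100a11 (134) led, and S100a10 stood at 31.3. Both lengths gave the same 5 leading S100 genes (S100a11, S100a6, S100a10, S100a16 and S100a1) and the same 5 leading annexins (Anxa2, Anxa5, Anxa1, Anxa3 and Anxa7).

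The promoters of Anxa2 and S100a11 are shown because both genes rose, both lie among the most abundant members and both carry the AP-1 motif TGANTCA, written to include the sites of JUN and FOS dimers. They are the windows from 250 bases before to 50 after the start site in RefSeq (GRCm38.p6), on the plus strand, for Anxa2 at chr9:69453433-69453732 and for S100a11 at chr3:93520246-93520545. Capitals mark AP-1 matches and, in Anxa2, the TATA motif TATAAA.
Anxa2: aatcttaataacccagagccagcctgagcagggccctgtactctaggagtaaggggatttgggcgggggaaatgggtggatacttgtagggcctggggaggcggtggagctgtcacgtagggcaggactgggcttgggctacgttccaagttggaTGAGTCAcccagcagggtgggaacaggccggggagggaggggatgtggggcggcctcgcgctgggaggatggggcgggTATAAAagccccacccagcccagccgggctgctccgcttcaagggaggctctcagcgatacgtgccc
S100a11: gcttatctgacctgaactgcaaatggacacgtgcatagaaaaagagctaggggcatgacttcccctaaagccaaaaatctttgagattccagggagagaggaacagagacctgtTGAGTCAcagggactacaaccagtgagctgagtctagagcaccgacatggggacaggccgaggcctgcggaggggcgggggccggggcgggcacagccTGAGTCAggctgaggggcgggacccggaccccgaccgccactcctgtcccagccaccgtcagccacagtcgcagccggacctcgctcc
The Anxa2 match begins 95 bases before the start site and its TATA motif 17 bases before it, and the S100a11 matches begin 136 and 38 bases before it. Searched on both strands, TGANTCA was found for 4 of the 21 members with a RefSeq window (Anxa2, Anxa10, S100a11 and S100a16), 19%, against 8.97% of all 27025 genes with a window. TATAAA was found for 5 of the 21 (Anxa1, Anxa2, Anxa10, S100a3 and S100a8), 23.8%, against 15.7% of all genes. S100a10, Anxa3, Anxa6, Anxa13, S100a2 and S100a14 were not searched. The AP-1 matches fell on genes of both directions, S100a11 and Anxa2 among those that rose, each with TGAGTCA, and S100a16 among those that fell, with TGAATCA in 1 of its 2 windows. A match is a description of the letters only.

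S100a10 encodes the partner that holds annexin A2 at the inner face of the plasma membrane. It is an unusual S100 protein in that its EF-hands no longer bind calcium, although the deposited term list gives it calcium ion binding. The gene lies on chromosome 3 from 93555080 to 93564643 on the plus strand (GRCm38). Normalized counts, which are counts scaled by TMM to the mean library size, were 3284, 3072 and 3225 in the Pa1F/F libraries and 7317, 7317 and 5637 in the Amh-pa1-/- libraries, here and below in the order of replicates 1, 2 and 3. Every Amh-pa1-/- library lay above every Pa1F/F library, and replicate 3 was the lowest of its group. The log2 fold change was 1.08 ± 0.11 (SE, adjusted p = 0.000763, edgeR), a 2.12-fold rise. It was past both thresholds in each fit that left out 1 library, with log2 fold changes from 1.02 to 1.20, and with the close pairs summed (1.05, adjusted p = 0.0340, edgeR).

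Anxa2, which forms the heterotetramer with S100A10 and binds plasminogen activators, actin and phosphatidylinositol lipids, rose as well. Its normalized counts were 11089, 10266 and 11091 in Pa1F/F and 18823, 18045 and 15059 in Amh-pa1-/- libraries. The groups were far apart, with the lowest Amh-pa1-/- value again in replicate 3. This gave a log2 fold change of 0.68 ± 0.10 (adjusted p = 0.00305, edgeR), a 1.60-fold rise that stays under the fold threshold. With the close pairs summed the adjusted p was 0.0650 (edgeR).

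S100a11, whose product binds the N-terminus of annexin A1, lies next to S100a10 on chromosome 3 (93520488 to 93526287, plus strand, GRCm38), and the pair spans 44.2 kb. It had 5318, 5162 and 5295 normalized counts in Pa1F/F libraries, a narrow range, and 10810, 10168 and 7498 in Amh-pa1-/- libraries. All Amh-pa1-/- libraries were higher and spread more widely than the control. S100a11 changed by a log2 fold change of 0.85 ± 0.13 (adjusted p = 0.00383, edgeR), and the adjusted p was 0.0684 with the close pairs summed.

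Anxa1 encodes annexin A1, a mediator of glucocorticoid action that limits inflammation through formyl peptide receptors. It had 3736, 4356 and 3752 normalized counts in Pa1F/F libraries and 6420, 6103 and 5152 in Amh-pa1-/- libraries. The groups did not overlap, and Pa1F/F replicate 2 was the highest control. Its log2 fold change was 0.58 ± 0.10 (adjusted p = 0.00619, edgeR), with an adjusted p of 0.0938 when the close pairs were summed.

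Anxa4 encodes an annexin that assembles on membranes and bends them at wounds. It had 778, 815 and 731 normalized counts in Pa1F/F and 1485, 1312 and 1353 in Amh-pa1-/- libraries. Of the annexins that rose it was the least abundant and had the largest fold change, and Amh-pa1-/- replicate 3 lay within the range of the other Amh-pa1-/- libraries. The log2 fold change was 0.84 ± 0.07 (adjusted p = 0.000493, edgeR), and with the close pairs summed the adjusted p was 0.0249.

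**Figure D2:**
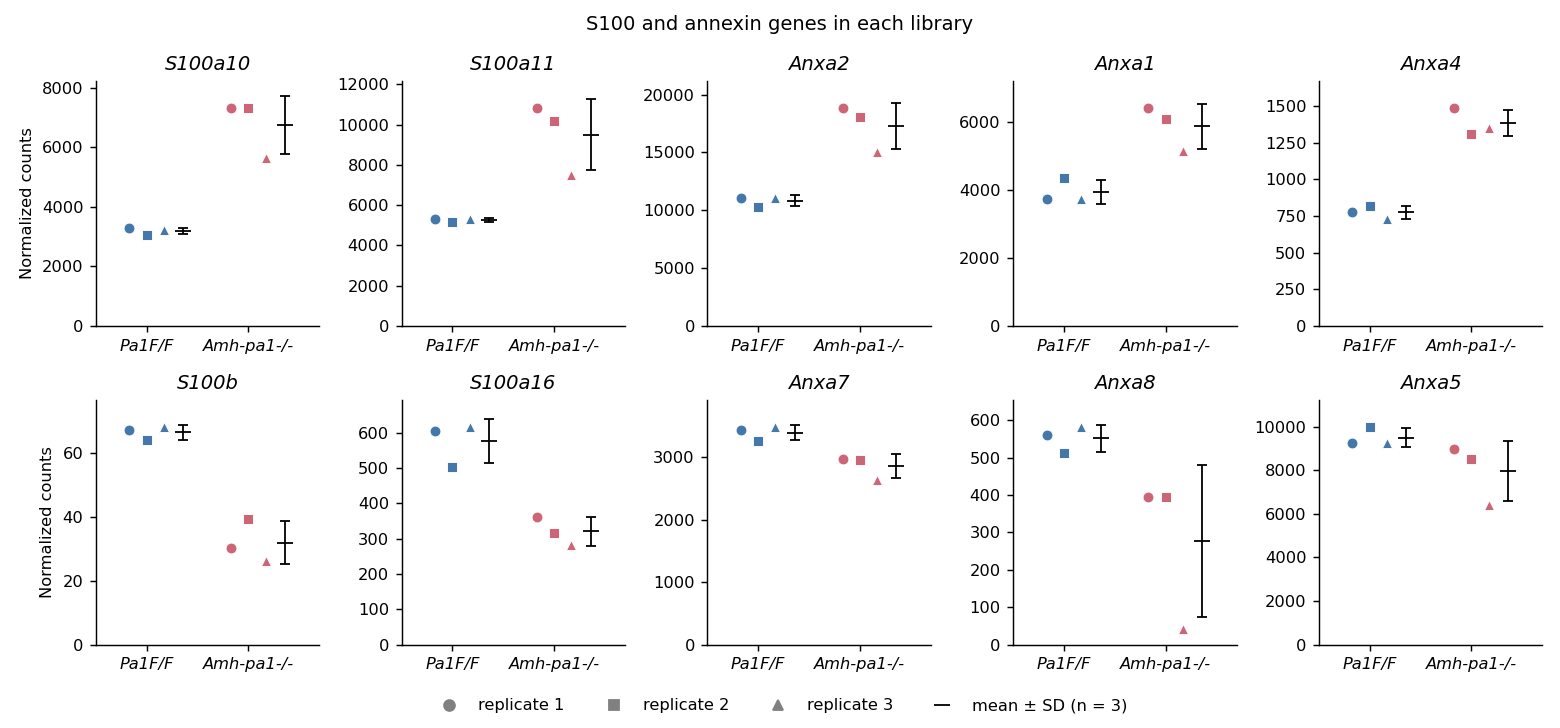
Normalized counts (vertical axes, each from 0) of 10 members in the 3 Pa1F/F libraries (blue) and the 3 Amh-pa1-/- libraries (red), symbols giving the replicate number and the black bar the mean ± SD (n = 3). S100a10, S100a11, Anxa2, Anxa1 and Anxa4 lie higher in every Amh-pa1-/- library, the other 5 lie lower in every one, and Anxa8 has a single low value of 41.1 in Amh-pa1-/- replicate 3.

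Since S100 proteins and annexins act in pairs, the counts of the partners were divided within each library. S100a10 over Anxa2 was 0.296, 0.299 and 0.291 in Pa1F/F and 0.389, 0.406 and 0.374 in Amh-pa1-/- libraries, so the S100 partner rose more than its annexin in each library. S100a11 over Anxa1 was 1.42, 1.19 and 1.41 in Pa1F/F and 1.68, 1.67 and 1.46 in Amh-pa1-/- libraries. These ranges did not overlap but came close, with Amh-pa1-/- replicate 3 just above the control. Both comparisons gave an exact two-sided permutation p of 0.1, the smallest that 3 against 3 libraries allow. S100a6 over Anxa11 was 10.2, 9.27 and 7.86 in Pa1F/F and 9.27, 9.22 and 12.5 in Amh-pa1-/- libraries, with overlapping groups (exact two-sided permutation p = 0.5). Of 12 such ratios, shares and sums compared, those with p = 0.1 had a Benjamini-Hochberg adjusted permutation p of 0.12.

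**Figure D3:**
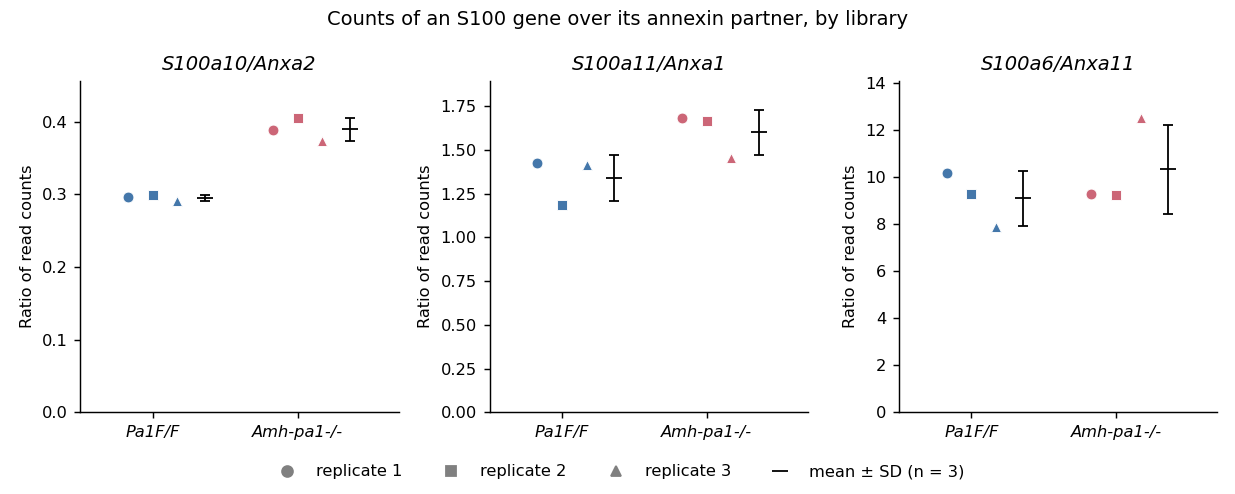
Ratio of the read counts of an S100 gene to those of its annexin partner in each library (vertical axes from 0), Pa1F/F in blue and Amh-pa1-/- in red, with mean ± SD (n = 3). The ratio S100a10/Anxa2 went from 0.295 to 0.390 on average with no overlap, while S100a6/Anxa11 overlapped between the groups.

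The counts were also summed over each family. Summed over the 14 S100 genes, the level was 770, 716 and 766 TMM-scaled CPM in Pa1F/F and 1384, 1335 and 1066 in Amh-pa1-/- libraries, a ratio of means of 1.68. S100a10 made up 28.9% ± 0.273 of these counts in Pa1F/F and 36.4% ± 0.748 in Amh-pa1-/- cells (SD, n = 3). S100a11, the largest share, made up 47.7% ± 1.15 and 50.9% ± 2.74, and here the groups overlapped (exact two-sided permutation p = 0.2). Summed over the 12 annexins, the level was 2327, 2330 and 2325 CPM in Pa1F/F and 3066, 2943 and 2403 in Amh-pa1-/- libraries, and replicate 3 of the latter was close to the control. Anxa2 went from 31.6% ± 1.43 to 42.0% ± 0.519 of the annexin counts, while Anxa5 went from 27.8% ± 1.22 to 19.2% ± 0.972. The shares of S100a10, Anxa2 and Anxa5 did not overlap between the groups (exact permutation p = 0.1 each). Shares of one sum are coupled, so a larger Anxa2 count lowers the Anxa5 share, and the level of Anxa5 itself did not pass the test.

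**Figure D4:**
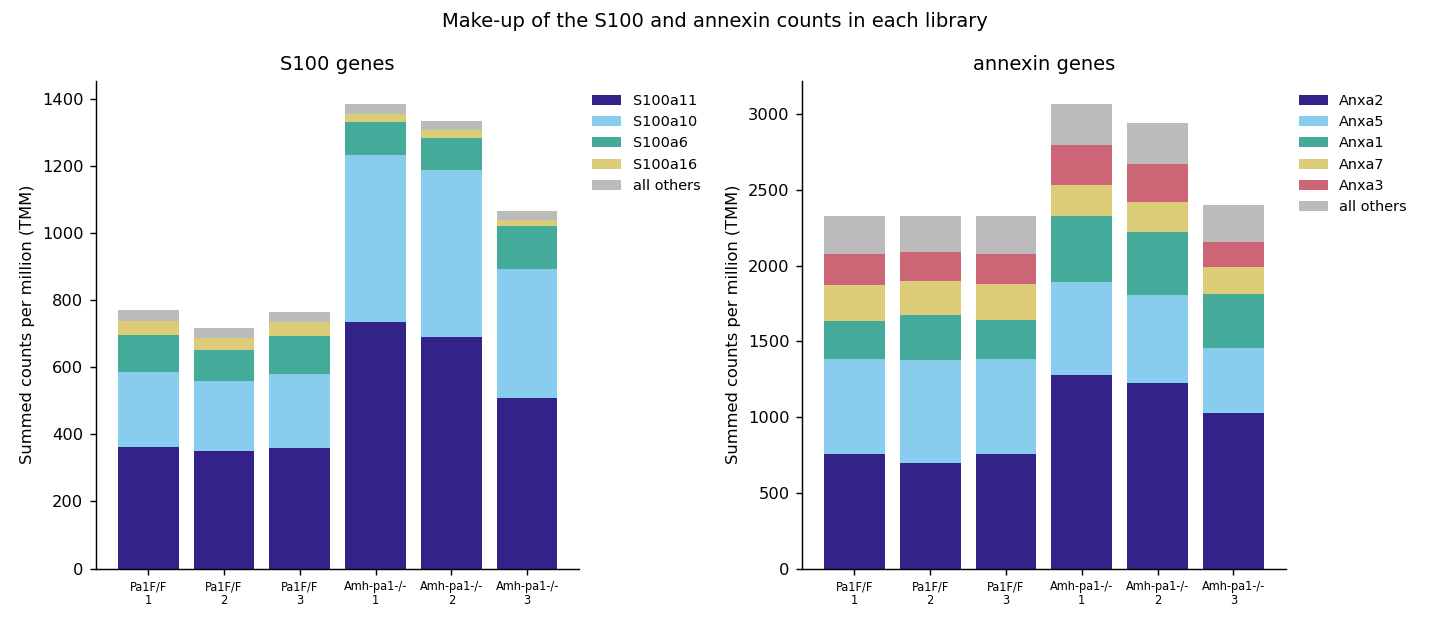
Stacked TMM-scaled CPM of the S100 genes (left) and the annexins (right) in each of the 6 libraries, with the leading genes coloured and all others in grey. The S100 bars reach 716 to 770 in Pa1F/F and 1066 to 1384 in Amh-pa1-/- libraries, mostly through S100a11 and S100a10, and the Anxa2 segment is taller in every Amh-pa1-/- library.

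Among the members that fell, S100b encodes the S100 protein best known from astrocytes and Schwann cells. It had 67.1, 63.9 and 68.2 normalized counts in Pa1F/F and 30.3, 39.4 and 26.1 in Amh-pa1-/- libraries. All Amh-pa1-/- values were lower, and the counts are small beside those of the genes above. The log2 fold change was -1.06 ± 0.21 (adjusted p = 0.00841, edgeR). Without Amh-pa1-/- replicate 3 it was -0.93 (adjusted p = 0.00968, edgeR), short of the fold threshold, and with the close pairs summed the adjusted p was 0.0773. S100b (chromosome 10, 76253853 to 76261159, plus strand) overlaps Dip2a on the other strand. Dip2a had 857 to 1002 counts in Pa1F/F and 920 to 1166 in Amh-pa1-/- libraries. Whether reads of the overlap were assigned to a gene or left out is not known, as the strand setting was not given in the sources used here.

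S100b stands beside markers of Schwann cells that also differed between the groups. The 4 tested markers summed to 33.0 to 34.9 CPM in Pa1F/F and 15.6 to 19.6 in Amh-pa1-/- libraries, and Cdh19 and Ngfr were lower. Sox10, a transcription factor that defines the lineage, was low in all libraries, at 1 to 8 counts. The part of these cells in the S100b result was not tested.

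S100a16, a broadly expressed S100 gene on chromosome 3 (90537254 to 90543151, plus strand), had 606, 504 and 618 normalized counts in Pa1F/F and 363, 318 and 283 in Amh-pa1-/- libraries. The groups were well separated. Its log2 fold change was -0.84 ± 0.13 (adjusted p = 0.00325, edgeR), and with the close pairs summed the adjusted p was 0.0543.

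Anxa7 encodes synexin, an annexin that promotes fusion of secretory membranes. It had 3443, 3256 and 3491 normalized counts in Pa1F/F and 2980, 2953 and 2637 in Amh-pa1-/- libraries. The difference was small but without overlap, at a log2 fold change of -0.25 ± 0.07 (adjusted p = 0.0250, edgeR). Its adjusted p was above 0.05 without Pa1F/F replicate 1 (0.0967), without Pa1F/F replicate 3 (0.0932), without Amh-pa1-/- replicate 2 (0.0616) and with the close pairs summed (0.188), while the log2 fold change stayed between -0.23 and -0.26 in these fits.

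Several abundant members did not pass the test. Anxa5, the phosphatidylserine binder used to stain dying cells, had 9248, 10003 and 9274 normalized counts in Pa1F/F and 8978, 8509 and 6402 in Amh-pa1-/- libraries. Each Amh-pa1-/- value lay below the control, but the log2 fold change was -0.26 ± 0.13 with an adjusted p of 0.166 (edgeR), and -0.12 without Amh-pa1-/- replicate 3 (adjusted p = 0.118). S100a6, or calcyclin, had 1642, 1355 and 1665 in Pa1F/F and 1429, 1401 and 1881 in Amh-pa1-/- libraries, with overlapping groups and a log2 fold change of 0.02 ± 0.14 (adjusted p = 0.940, edgeR). S100a1, known as a regulator of calcium cycling in heart muscle, had 248, 203 and 235 in Pa1F/F and 235, 237 and 199 in Amh-pa1-/- libraries, again overlapping.

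For Anxa8 and Anxa3, leaving out Amh-pa1-/- replicate 3 brought the adjusted p under 0.05, with log2 fold changes that stayed short of the fold threshold. Anxa8, which encodes an annexin of late endosomes, had 560, 512 and 583 normalized counts in Pa1F/F, and 396, 394 and only 41.1 in Amh-pa1-/- libraries. The low library widened the spread, and the log2 fold change of -0.99 ± 0.66 did not pass (adjusted p = 0.283, edgeR). Without that library it was -0.48 with an adjusted p of 0.00414. Anxa3 had 2991, 2859 and 2936 in Pa1F/F and 3884, 3669 and 2472 in Amh-pa1-/- libraries, so replicate 3 fell below the control while the other two lay above it. The log2 fold change was 0.19 ± 0.16 (adjusted p = 0.391, edgeR) with all libraries and 0.37 (adjusted p = 0.000705) without replicate 3.

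The remaining 5 tested members overlapped between the groups and had log2 fold changes between -0.38 and 0.09, with adjusted p from 0.316 to 0.685 (edgeR). They were Anxa6, an annexin with a doubled core (-0.05), Anxa11, the partner of S100A6 (-0.18), Anxa9 (-0.38), S100a13, which takes part in the release of FGF1 (0.07), and S100pbp (0.09). Single libraries moved the largest of these values, since Anxa9 was at -0.09 without Amh-pa1-/- replicate 3 and Anxa11 at -0.02 without Pa1F/F replicate 3. Anxa9 overlaps Mindy1 on the other strand, a gene with 1865 to 2214 counts in Pa1F/F and 901 to 1011 in Amh-pa1-/- libraries against 24 to 69 counts for Anxa9 itself.

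The 9 members under the filter had at most 15 counts in a library, and no fold change was fitted for them in the main test. S100z had 13, 4 and 15 counts in Pa1F/F and 1, 0 and 0 in Amh-pa1-/- libraries, which is 32 against 1, a ratio of control over knockout of 30.0 with a 95% exact counting interval from 5.01 to 1221. Anxa13, an annexin of intestinal and kidney epithelium, had 0, 3 and 0 counts in Pa1F/F and 11, 9 and 9 in Amh-pa1-/- libraries, a ratio of knockout over control of 10.3 (3.20 to 52.9). Both had groups that did not overlap. S100a3 had 2 counts in all in Pa1F/F and 15 in Amh-pa1-/- libraries (ratio 8.01, interval 1.86 to 72.1), again without overlap. It shares its span with S100a2 on the same strand, so their reads may not be told apart. Anxa10, an annexin of the stomach lining, had 6 counts against 19, of which 11 lay in Amh-pa1-/- replicate 3, and the groups overlapped.

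S100a8, a subunit of the neutrophil protein calprotectin, had 9 counts, all of them in Pa1F/F replicate 2. In that library the neutrophil genes Mmp9 and Camp had 35 and 19 counts, against 1 to 3 and 1 to 9 in the other libraries. Mmp8 had 2 counts there and 0 in the other libraries, while Ly6g, Csf3r, Ngp and Ltf had 0 to 3 counts in any library, too few to compare. The part of neutrophils in the S100a8 counts was not tested. S100a2, S100a7a, S100a14 and S100a5 had 1 to 3 counts each over all 6 libraries. These intervals cover counting error only, since reads without molecular identifiers are not independent molecules.

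In the genome, 12 of the 14 S100 genes lie on chromosome 3 in a pair of groups (GRCm38). The first, from S100a1 to S100a8, spans 159 kb (90511034 to 90670035) and holds 10 members, of which 4 were tested. Within it S100a16 fell, while S100a1, S100a13 and S100a6 had log2 fold changes of -0.03, 0.07 and 0.02. The second, S100a11 with S100a10, lies 2850 kb away and spans 44.2 kb, and both of its genes rose. Of 20 other tested genes within 500 kb of the first group, 2 were higher (10%, against 18.2% of all tested genes) and 8 lower (40%, against 17.1%) at an adjusted p under 0.05. Within 500 kb of the second group 1 other gene was tested, and it did not pass. The annexins are scattered, the 12 lying on 9 chromosomes.

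Partner genes were taken from a list of 27 genes for binding partners, receptors and enzymes served by the families. Of 23 tested, 8 were higher (34.8%, against 18.2% of all tested genes) and 4 lower (17.4%, against 17.1%) at an adjusted p under 0.05, and the median log2 fold change was 0.19 beside 0.00 for all tested genes. Ahnak, which encodes a giant scaffold that binds the S100A10 and annexin A2 complex under the membrane, had 7363, 4560 and 7804 normalized counts in Pa1F/F and 17634, 18288 and 12196 in Amh-pa1-/- libraries, a log2 fold change of 1.29 ± 0.24 (adjusted p = 0.00719, edgeR). Genes of surface plasminogen activation moved in different directions. Plaur, the urokinase receptor, had a log2 fold change of 1.40 ± 0.21 (adjusted p = 0.00339), with 1060 to 1906 normalized counts in Amh-pa1-/- against 544 to 634 in Pa1F/F libraries. Plau, urokinase itself, was at -1.14 ± 0.20 (adjusted p = 0.00587), with 151 to 255 against 394 to 445, so neither gene's groups overlapped. Plat, tissue plasminogen activator, did not pass (0.59 ± 0.22, adjusted p = 0.0742, edgeR), with Amh-pa1-/- replicate 3 at 2315 normalized counts, inside the control range of 2225 to 2490.

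Kcnk3, Cd36 and Tgm2 fell. Kcnk3, a potassium channel that S100A10 helps to traffic, had 42.6 to 62.9 normalized counts in Pa1F/F and 2.93 to 9.01 in Amh-pa1-/- libraries (log2 fold change -3.21 ± 0.38, adjusted p = 0.00138, edgeR). Cd36, a scavenger receptor and fatty acid transporter, had 297, 98.8 and 332 in Pa1F/F and at most 29.3 in Amh-pa1-/- libraries (-3.45 ± 0.55, adjusted p = 0.00416). Pa1F/F replicate 2 was the lowest control for Cd36 but still above every Amh-pa1-/- library. Tgm2, transglutaminase 2, was at -1.35 ± 0.08 (adjusted p = 0.000124). Of the receptors of extracellular S100 proteins, Tlr4 rose by a log2 fold change of 0.70 (adjusted p = 0.00371). Ager, the receptor for advanced glycation end products, did not pass (-0.51, adjusted p = 0.320), with overlapping groups at 6.76 to 15.4 normalized counts.

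**Figure D5:**
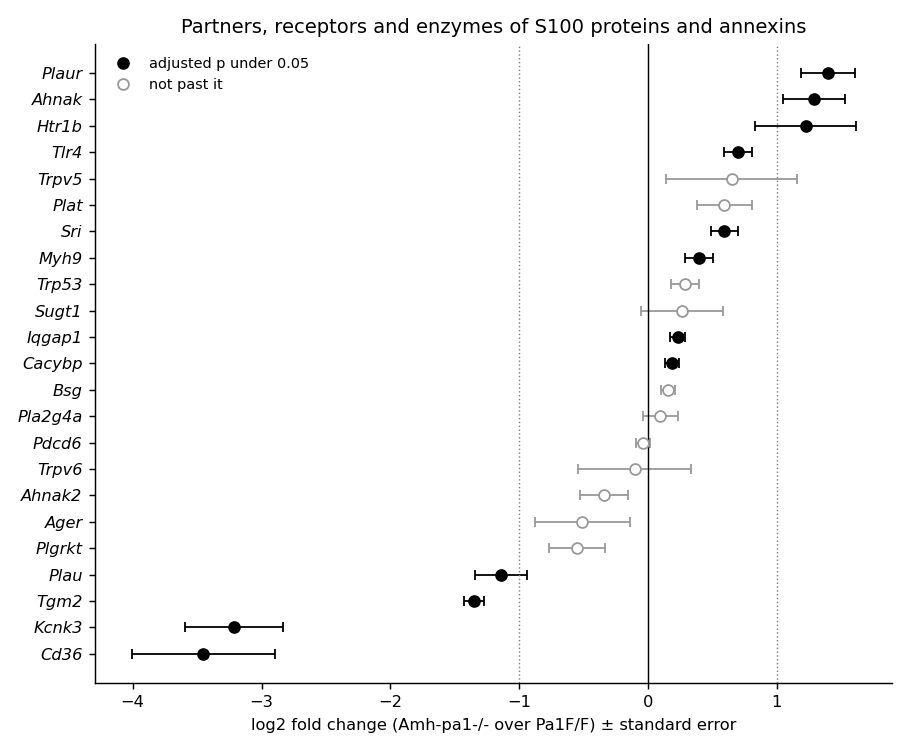
Log2 fold change of Amh-pa1-/- over Pa1F/F Sertoli cells, with the standard error as bars, for the 23 tested genes of the partner list; filled points passed an adjusted p of 0.05 and dotted lines mark -1 and 1. Plaur (1.40) and Ahnak (1.29) lie at the right end, and Tgm2 (-1.35), Kcnk3 (-3.21) and Cd36 (-3.45) at the left end.

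Membrane repair, in which annexins form a cap over the wound, was covered by a list of 25 genes. Of 24 tested, 8 were higher (33.3%, against 18.2% of all tested genes) and 4 lower (16.7%, against 17.1%) at an adjusted p under 0.05, with a median log2 fold change of 0.09. Every caveola gene of the list (Cav1, Cav2, Cavin1, Cavin2 and Cavin3) was among the higher ones, and the others were Ehd1, Ehd3 and Smpd1. The lower ones were Tgm2, Syt7, Ehd4 and Myof. The 3 that rose past the fold threshold encode parts of caveolae. Cavin2 had 44.5 to 59.8 normalized counts in Pa1F/F and 382 to 552 in Amh-pa1-/- libraries (log2 fold change 3.19 ± 0.20, adjusted p = 0.000145, edgeR). Cav1, the coat protein of caveolae, was at 1.56 ± 0.11 (adjusted p = 0.000248) and Cavin3 at 1.54 ± 0.16 (adjusted p = 0.000846). Syt7, a calcium sensor of lysosome exocytosis, had 432 to 547 normalized counts in Pa1F/F and 90.8 to 119 in Amh-pa1-/- libraries (-2.27 ± 0.15, adjusted p = 0.000186). Dysf, which encodes the ferlin that meets annexins at the wound, had a log2 fold change of 0.09 and did not pass (adjusted p = 0.724).

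Marker levels of other cell types differed between the groups beside the members that rose. Peritubular myoid markers summed to 250 to 320 CPM in Pa1F/F and 913 to 1341 in Amh-pa1-/- libraries, with 2 of 6 tested genes higher (Acta2 and Smtn) and none lower. Most of this rise was Acta2: without it the sum was 77.6 to 106 CPM in Pa1F/F libraries and 104, 104 and 294 CPM in Amh-pa1-/- libraries. Des, Actg2 and Myh11 were below every Pa1F/F library in Amh-pa1-/- replicates 1 and 2, and these genes and Cnn1 were higher in replicate 3 than in any other library. In replicate 3 S100a10, S100a11, Anxa2 and Anxa1 were the lowest of their group. Mesothelial markers summed to 7.37 to 12.7 and 31.6 to 40.4 CPM, with 4 of 6 tested genes higher. Macrophage markers summed to 139 to 152 in Pa1F/F and 83.3 to 97.9 in Amh-pa1-/- libraries, with 8 of 10 tested genes lower. Mrc1, which did not pass, held much of that sum, and the other 9 markers went from 68.2 to 81.7 CPM in Pa1F/F down to 15.2 to 19.4 CPM in Amh-pa1-/- libraries. Leydig markers summed to 794 to 911 and 165 to 288 CPM, with all 3 tested genes lower. Fibroblast markers summed to 3613 to 4497 CPM in Pa1F/F and to 2197, 2182 and 4100 CPM in Amh-pa1-/- libraries, with 2 of 6 tested genes lower. The part of these cells in the S100 and annexin values was not tested.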

How the data were processed

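Reads were aligned by the authors with HISAT2 2.1.0 (GRCm38) and counted per gene with HTSeq 0.6.0, and the deposited counts per library are not normalized. Their own fold changes and p-values stand in the same table and were not used. From the counts, genes were filtered with filterByExpr (minimum count 10, minimum total 15), scaled by TMM and tested across the whole table with the quasi-likelihood F-test of edgeR 4.0.16 in R 4.3.3, without covariates. Benjamini-Hochberg adjustment covered 14919 genes, and called genes had an adjusted p under 0.05 with a log2 fold change of 1 or more in either direction. Transcript lengths for RPKM came from GENCODE vM39, matched by gene identifier for all 27 members, an annotation newer than that of the counts. The members, lists and tests were chosen with earlier results of these data known. Values per library are given for members that were called, past the adjusted p or among the 5 leading S100 genes or annexins per length, and for Anxa8, chosen after its values were seen. From the lists, called genes are named, at most 6 by adjusted p, and Plat, Tlr4, Ager and Dysf were named after their values were seen. Marker lists also covered Leydig cells (0 of 3 tested genes higher, 3 lower), endothelial cells (1 and 2 of 4), fibroblasts (0 and 2 of 6), germ cells (1 and 1 of 3) and rete testis (1 and 0 of 2). Of 11 neutrophil markers none was tested. The steps were tested on simulated counts with 200 genes changed by a log2 fold change of 2, larger than that of any tested member. All of them were recovered among 14923 (100%) with 2 false calls, and smaller changes were not simulated. The simulated libraries shared a fixed dispersion and held no outlying library, so these rates need not hold for the data. Alternatives, 16 in number, included DESeq2 1.42.0 and limma-voom (limma 3.58.1).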

Additional observations from a re-analysis of the deposited data

How the results depend on the processing

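Across the alternatives, S100a10 and Anxa4 kept their direction and an adjusted p under 0.05 in all 14 settings that give single-gene values, with log2 fold changes of 1.02 to 1.20 and 0.79 to 0.89. Of the 27 members, 1 was called higher (S100a10) and 1 lower (S100b). Under DESeq2's Wald test 2 were higher and 2 lower, and without a filter on low counts also 2 and 2, with Anxa13 and S100z added. Without the fold threshold 5 were higher and 3 lower. With glmTreat against a log2 fold change of 1 there were 0 and 0 (538 genes in all, and 0 members at an unadjusted p under 0.05). With the close pairs of libraries summed, 1 was higher and 0 lower. Leaving out 1 library gave 1 to 2 higher and 1 to 2 lower, the added ones being Anxa13 and S100z, and without Amh-pa1-/- replicate 3 the lower one was S100z in place of S100b. Left-out libraries moved S100a1 between -0.113 and 0.0457 and S100a6 between -0.133 and 0.106, both across 0 and with no adjusted p under 0.05. Anxa7 had an adjusted p above 0.05 in 6 of the 14 settings, at log2 fold changes of -0.23 to -0.26. Samples with the same replicate number gave no sign of pairing (correlations of deviations from group means 0.108, -0.164 and -0.179). These values cannot exclude that the samples were matched, as deviations within a group of 3 are not independent. With the replicate block 1 member was higher and 1 lower, and Anxa7 had an adjusted p of 0.0767. Members with few counts are limited by depth, as their counting intervals show.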

Other observations

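Calcium sensors outside the S100 family, in a list of 46 other EF-hand genes, were measured in the same libraries. Of 39 tested, 10 were higher (25.6%, against 18.2% of all tested genes) and 7 lower (17.9%, against 17.1%) in Amh-pa1-/- Sertoli cells at an adjusted p under 0.05 (edgeR), with a median log2 fold change of 0.11. The 3 that rose past the fold threshold were Myl9, Myl6 and Lcp1. Myl9, a regulatory light chain of non-muscle and smooth muscle myosin, had 3452, 2390 and 3498 normalized counts in Pa1F/F and 11585, 11209 and 9870 in Amh-pa1-/- libraries (log2 fold change 1.81 ± 0.16, adjusted p = 0.000476). Myl6, an essential light chain, was at 1.05 ± 0.07 (adjusted p = 0.000196), and Lcp1, an actin bundler of the plastin family, at 1.66 ± 0.18 (adjusted p = 0.00106). Myl9 is also a smooth muscle gene. Of the peritubular markers, Acta2 and Smtn were higher in every Amh-pa1-/- library, while Des, Actg2 and Myh11 were below every Pa1F/F library in Amh-pa1-/- replicates 1 and 2, where Myl9 was highest. The part of such cells was not tested.

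Of the 5 that fell past it, Hpcal1, a neuronal calcium sensor protein, had 1654, 1544 and 1591 normalized counts in Pa1F/F and 551, 644 and 650 in Amh-pa1-/- libraries (-1.38 ± 0.08, adjusted p = 0.000124, edgeR). Capn6, a calpain without protease activity, was at -1.06 ± 0.08 (adjusted p = 0.000257). Cabp1, a regulator of calcium channels, had 414 to 485 normalized counts in Pa1F/F and 50.1 to 139 in Amh-pa1-/- libraries (-2.10 ± 0.34, adjusted p = 0.00403). None of these genes had overlapping groups.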
